A study of Mus musculus with 2 samples.

Results

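Tmem252 is 1 of the 31053 genes counted in endothelial cells sorted from mouse lung, and its UMIs (unique molecular identifiers, each standing for 1 captured transcript) are described here by cell class and by condition. The study used male wild-type C57BL/6 mice of 8 to 10 weeks and asked how lung endothelium responds when tumor cells arrive. Control lungs came from mice injected with PBS through the tail vein. Metastatic lungs came from mice that received 200000 B16-F10 cells each by the same route, B16-F10 being a melanoma line of the same mouse strain. Both were taken at 6 h, PECAM1-positive cells were sorted, and the cells of 2 mice were pooled into 1 droplet library per condition. With 1 library per condition, a difference between conditions has no replicate check, and it cannot be told apart from a difference between the pools. All intervals are 95% intervals that cover counting error only, and since Tmem252 UMIs were concentrated in few cells they understate the spread.

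Barcodes with 1000 to 5000 genes and under 20% mitochondrial UMIs were taken as cells, which gave 7134 cells in control lungs and 6466 in metastatic lungs at a median of 6272.5 and 6526.5 UMIs. Classes were set by marker genes other than Tmem252. Aerocytes (aCap) had at least 2 of Ednrb, Fibin and Tbx2, vein cells at least 2 of Slc6a2, Car8 and Bst1, and artery cells at least 2 of Gja5, Bmx and Fbln5. General capillary cells (gCap) had at least 2 of Gpihbp1, Aplnr, Kit and Lpl and passed none of the other rules. At least 98.7% of the cells in each class carried 2 or more of the 6 endothelial genes Pecam1, Cdh5, Cldn5, Egfl7, Tie1 and Ramp2. The endothelial label thus held, but these genes do not bear on which class a cell was given. A set of 16 barcode sequences was called in both libraries. They carried 10 and 9 Tmem252 UMIs, and without them the gCap ratio given below remained at a log2 value of 0.37.

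Lung capillaries hold a pair of endothelial cell types. The gCap cells respond to injury and can renew the capillary bed, whereas the aCap cells are thin, lie against the alveoli and serve gas exchange. Leukocytes typically leave the blood through postcapillary venules, whereas in the lung, the study states, they leave through capillaries. Tmem252 encodes a small transmembrane protein whose molecular role is poorly described, and the study counts it among the marker genes of a reactive capillary state (rCap), together with Inhbb, Bcl3, Adamts9, Osmr, Scarb1 and Pim3. That gene set was chosen on data that include these libraries, so its agreement with Tmem252 is not independent evidence. The study also drew on further single-cell experiments that are not used here. By RT-qPCR in isolated lung endothelial cells of separate mice, it reports higher Tmem252 at 6 h after B16-F10 injection.

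Tmem252 (ENSMUSG00000048572) lies on the forward strand of chromosome 19 at chr19:24674008-24682233 in GRCm38, the build of the counts. GENCODE M21 gives 1 transcript of 2 exons, 336 and 4698 bases long, separated by an intron of 3192 bases. The coding sequence of 549 bases encodes 183 residues, and most of the second exon is a 3′ untranslated region of 4421 bases. RefSeq ends the gene 2572 bases earlier. Because the assay reads the 3′ end of transcripts, the end used in counting bears on how many Tmem252 UMIs were assigned, and it bears on both libraries alike. No other annotated gene overlapped Tmem252 on either strand. Pgm5, on the opposite strand, has its 3′ end 783 bases beyond that of Tmem252 and had 15 and 20 UMIs in gCap cells of control and metastatic lungs.

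The 250 bases before the annotated start are shown because the start of a gene that varies so strongly between like cells is a natural place to look for regulatory sequence. They span chr19:24673758-24674007 (GRCm38.p6, forward strand, RefSeq), with the only TATA-like match in capitals.

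Tmem252 upstream: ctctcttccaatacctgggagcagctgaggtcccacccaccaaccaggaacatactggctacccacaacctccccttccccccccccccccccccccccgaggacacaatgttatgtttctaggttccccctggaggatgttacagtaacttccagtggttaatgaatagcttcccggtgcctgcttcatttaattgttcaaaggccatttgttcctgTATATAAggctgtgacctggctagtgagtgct

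The match TATATAA began 32 bases before the start, and 3.04% of 32851 promoter windows of this length held that motif on either strand. The letters CAGCTG, an E-box, were found at 229 bases before the start, as in 13.0% of windows. On both strands, the window held no match to TTCNNNGAA (STAT), TGANTCA (AP-1), TTGCNNAA (C/EBP), AGGAAG (ETS) or TGACGTCA (CRE), which says only that these letters are absent from these bases. In the same order, 7.02%, 6.75%, 9.56%, 29.5% and 1.55% of windows held these motifs.

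Tmem252 was highest in veins, lower in gCap cells and lowest in aCap cells, in both libraries. In control lungs its level was 527 CPM (Tmem252 UMIs per 1000000 UMIs of those cells, 95% interval 497 to 558) in 247 vein cells. It was 199 CPM (161 to 242) in 63 artery cells. It was 153 CPM (149 to 158) in 5020 gCap cells and 48.2 CPM (44.3 to 52.4) in 1364 aCap cells. Vein cells thus exceeded gCap cells 3.43-fold (3.22 to 3.66), and gCap cells exceeded aCap cells 3.18-fold (2.91 to 3.48). In metastatic lungs the corresponding folds were 2.78 (2.62 to 2.94) and 2.84 (2.62 to 3.08). These intervals were far from equality at each of these steps of the order.

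Because gCap cells were so numerous, they held 69.5% of all Tmem252 UMIs in control lungs and 71.0% in metastatic lungs, against 16.4% and 17.4% in vein cells. Cells with at least 2 markers of lymphoid, myeloid, epithelial, mural or platelet identity and no UMI of the endothelial genes Cdh5 and Cldn5 gave the background. They held 2 Tmem252 UMIs in 106 control cells and 5 in 125 metastatic cells, or 2.54 CPM (0.308 to 9.19) and 5.0 CPM (1.62 to 11.7). Lymphoid cells among them held 0 UMIs, which at a limit of 3 counts, not a 95% interval, allows up to 14.1 CPM in 43 control cells and 11.6 CPM in 48 metastatic cells. The aCap level was above this background in both libraries. That rests on leaving out cells with a Cdh5 or Cldn5 UMI, which also leaves out cells carrying stray endothelial RNA. Without that step, cells with 2 or more lymphoid markers stood at 28.6 CPM (16.6 to 45.8) in control lungs. In metastatic lungs they stood at 57.3 CPM (42.1 to 76.2), an interval that holds the aCap level of 70.0 CPM there. Those with 2 or more myeloid markers stood at 73.3 and 142 CPM. Cells with 2 or more markers of lymphatic endothelium were few, 14 and 24, with 11 and 6 Tmem252 UMIs.

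Artery cells had no fixed place in the order. They stood 1.29-fold above gCap cells in control lungs (1.05 to 1.58), and at 0.610 of the gCap level in metastatic lungs (0.464 to 0.788). Their values rested on 98 UMIs in 63 cells and 59 UMIs in 59 cells. The highest artery cell held 25.5% of the control UMIs and 27.1% of the metastatic UMIs, and without those cells the levels were 152 and 89.8 CPM.

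Within the aCap class, the level depended on how many aCap markers a cell showed. The 394 control cells with 2 of the 3 markers stood at 109 CPM (97.7 to 122), and the 970 cells with all 3 stood at 26.8 CPM (23.4 to 30.6). The same held in metastatic lungs, at 150 CPM and 39.9 CPM. In the vein class the number of markers made less difference, with 499 CPM at 2 markers and 550 CPM at 3 in control lungs, and 530 and 568 CPM in metastatic lungs. In the gCap class the level was 136 CPM at 2 markers, 152 at 3 and 169 at 4 in control lungs. In metastatic lungs it was 154, 191 and 243 CPM. The gCap cells with all 4 markers numbered 808 in control and 932 in metastatic lungs. Whether the ratio between libraries varies with the number of markers was not tested.

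A vein marker in a gCap cell went with little more Tmem252. Control gCap cells with 1 vein marker stood at 177 CPM (159 to 196) and those with none at 152 CPM (147 to 156), a log2 difference of 0.22 (0.06 to 0.37). In metastatic lungs the difference was 0.10 (-0.04 to 0.24). Without barcodes that carried markers of other cell types the control difference was 0.54.

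**Figure D1:**
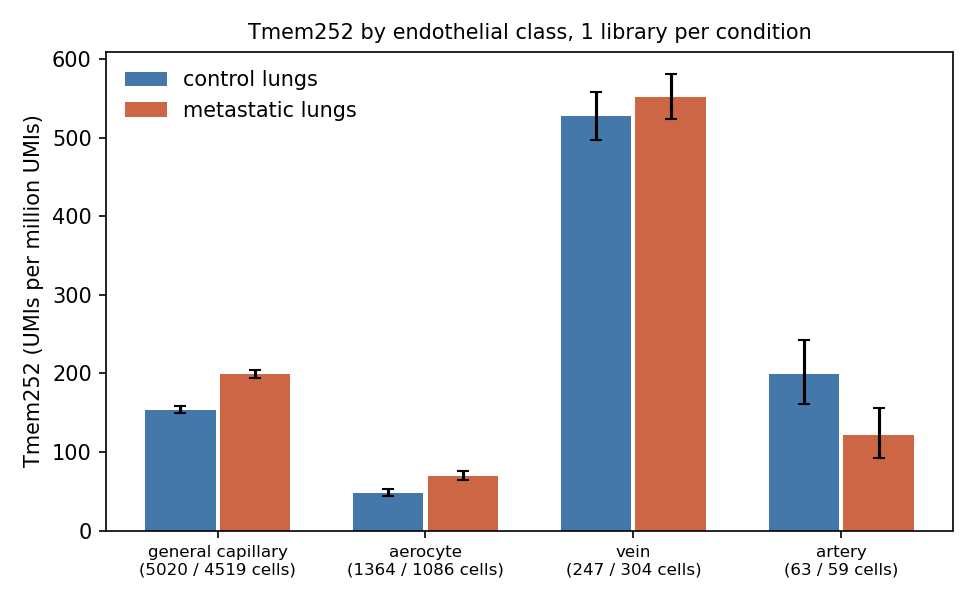
Tmem252 level in CPM (vertical axis, linear from 0) in the 4 endothelial classes, with the number of control and metastatic cells under each. Bars are 1 library each and error bars are exact 95% Poisson intervals; vein bars are the highest in both libraries, and gCap and aCap bars are higher in metastatic lungs while the artery bar is lower.

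After B16-F10 injection Tmem252 was higher in gCap and aCap cells, close to its control level in vein cells, and lower in the few artery cells. In gCap cells the level was 153 CPM in control and 199 CPM (194 to 204) in metastatic lungs, a log2 ratio of 0.37 (0.32 to 0.43) or 1.29-fold. Of 11220 genes with at least 100 UMIs in gCap cells, 10.5% were higher by 1.25-fold or more, so a change of this size was not rare, and 950 genes had a larger ratio. In aCap cells the level was 70.0 CPM (64.7 to 75.6) in metastatic lungs, a log2 ratio of 0.54 (0.37 to 0.70), where 9.50% of 9504 genes passed the 1.25-fold limit and 307 had a larger ratio. The highest aCap cell held 70 of the 657 Tmem252 UMIs of the class in metastatic lungs and 28 of 546 in control lungs. Cells with 20 or more UMIs held 20.4% and 9.52% of them, and the ratio without such cells was not computed.

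In vein cells the metastatic level was 552 CPM (524 to 580), a log2 ratio of 0.07 (-0.05 to 0.18), an interval that includes no change, and 12.0% of 6260 genes were higher by 1.25-fold or more. Epithelial genes summed to 82.5 CPM in control and 3613 CPM in metastatic vein cells, and myeloid genes to 33.1 and 667 CPM. Without barcodes carrying platelet, immune, epithelial or mural markers the vein ratio was 0.05 (-0.07 to 0.16). In artery cells the metastatic level was 121 CPM (92.3 to 156), a log2 ratio of -0.71 (-1.20 to -0.23), where 13.4% of 1827 genes were lower by that fold. Markers of other cells differed in this class too. The summed level of 4 lymphatic endothelial genes was 2.03 CPM in control and 1480 CPM in metastatic artery cells, of which 3.39% carried 2 or more of them. Myeloid genes summed to 26.4 and 347 CPM, and cells with 2 or more platelet genes were 1.59% and 10.2%. Without barcodes carrying platelet, immune, epithelial or mural markers the artery ratio was -0.66 (-1.20 to -0.13), and the part of the lymphatic genes was not tested. With artery cells that had no vein marker UMI the ratio was -0.57 (-1.19 to 0.04), and that interval includes no change. Whether the classes differed in their ratios was not tested, since cells of 1 library are not replicates.

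Markers of other cell types differed between the libraries. Cells with 2 or more of 5 platelet genes made up 6.63% of control and 10.8% of metastatic gCap cells. The summed level of the 4 hemoglobin genes in gCap cells was 1956 CPM in control and 822 CPM in metastatic lungs. Without barcodes carrying platelet, immune, epithelial or mural markers, the gCap log2 ratio was 0.32 (0.26 to 0.38). Subtracting free RNA at a share read from the hemoglobin genes turned the gCap ratio to -1.88 and put control vein cells below control gCap cells, at a log2 ratio of -0.59. That share was 89.7% in control gCap cells, where the 5% of cells richest in hemoglobin held 77.8% of its UMIs. With the share read from the remaining cells, a step chosen after seeing the data, it was 21.0% and the gCap ratio was 0.26.

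The share of gCap cells with any Tmem252 UMI differed little between libraries, and the higher level was counted in the cells with many. These groups are set by the count itself, and a rise spread over all cells would also move cells into the highest group. The split therefore cannot tell where the rise lay. A Tmem252 UMI was found in 38.0% of control gCap cells (36.7 to 39.4) and 38.1% of metastatic gCap cells (36.7 to 39.6), at a median of 5950.5 and 6275 UMIs per cell, a difference of 0.120 percentage points (-1.85 to 2.09). Cells with 1 to 5 Tmem252 UMIs supplied 96.6 CPM of the level in control and 89.1 CPM in metastatic lungs. Cells with 6 or more supplied 56.9 CPM and 110 CPM. The latter were 177 cells, or 3.53% (3.03 to 4.07), in control lungs and 292 cells, or 6.46% (5.76 to 7.22), in metastatic lungs, and they held 37.1% and 55.2% of the gCap UMIs of Tmem252.

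The gCap cells with 10 or more UMIs numbered 69 and 128, and those with 20 or more numbered 13 and 30. If each gCap cell had expressed Tmem252 in proportion to its depth, a Poisson count would give 2035 control cells and 1372 metastatic cells without a UMI, where 3112 and 2796 were observed. It would give 12.8 and 39.6 cells at 6 or more. Tmem252 was therefore spread unevenly over gCap cells in both libraries, with the highest 5% of cells holding 44.4% of its UMIs in control and 48.5% in metastatic lungs.

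At equal depth the fold between libraries was larger for cells with several UMIs than for cells with any. A rise spread over all cells would also give a larger fold at a higher count, so this order cannot tell where the rise lay. With each cell thinned to 2000 UMIs, which left out 73 and 58 shallower gCap cells, 19.4% of control (18.3 to 20.5) and 21.0% of metastatic cells (19.8 to 22.2) would show a UMI, a difference of 1.60 percentage points (-0.04 to 3.24). The interval of this difference lay above 0 under 4 alternatives, thinning to 1000 UMIs (1.55, from 0.22 to 2.89), at least 3 markers of a class (1.86, from 0.13 to 3.59), a minimum of 1500 genes (1.79, from 0.09 to 3.49) and a 10% mitochondrial limit (1.65, from 0.005 to 3.29). In the non-endothelial background cells it was 1.34% and 1.54%. Cells with 3 or more UMIs after thinning were 2.46% (2.05 to 2.93) in control and 3.91% (3.36 to 4.53) in metastatic lungs. Cells with 5 or more were 0.689% (0.478 to 0.961) and 1.32% (1.01 to 1.70). Whether the difference between libraries varies with the number of UMIs was not tested, since cells of 1 library are not replicates. In vein cells the thinned share with a UMI was 47.4% and 49.6%, and in aCap cells 6.62% and 8.05%.

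**Figure D2:**
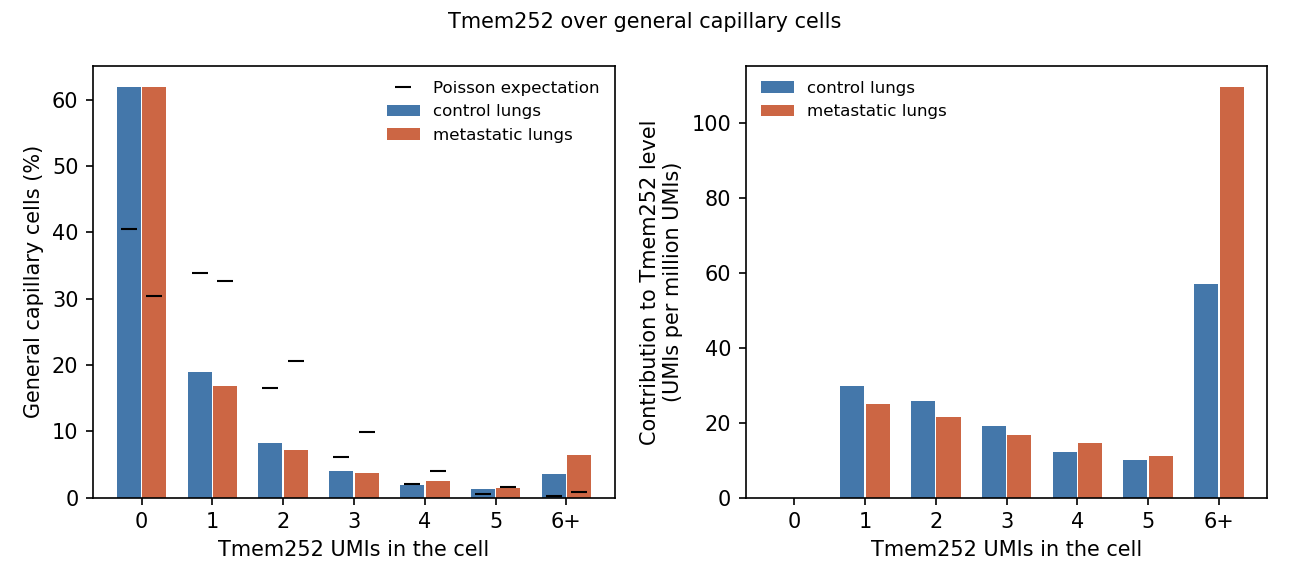
Left, share of gCap cells (percent) by the number of Tmem252 UMIs in the cell, with black dashes for a Poisson count at each cell's depth; right, what each of these groups of cells added to the level in CPM. The bars at 0 UMIs are alike at 62.0% and 61.9%, whereas cells with 6 or more UMIs added 56.9 in control and 110 in metastatic lungs. Cells are grouped by their own count, so the panels cannot tell where a rise lay.

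The aCap cells showed the same shape on a smaller scale. Those with 6 or more Tmem252 UMIs were 12 of 1364 in control and 28 of 1086 in metastatic lungs, and they supplied 12.8 and 37.9 CPM of the class level, whereas cells with 1 to 5 UMIs supplied 35.4 and 32.1 CPM. In vein cells high counts were common in both libraries. There 26.7% of control and 29.6% of metastatic cells had 6 or more UMIs, and those cells held 73.1% and 75.8% of the vein UMIs.

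The gCap cells that carried other rCap genes held more Tmem252 in both libraries. Cells were grouped by how many of Inhbb, Bcl3, Adamts9, Osmr, Scarb1 and Pim3 had a UMI at 2000 UMIs per cell, averaged over 100 draws. In cells with none, Tmem252 stood at 115 CPM (105 to 125) in control and 119 CPM (108 to 130) in metastatic lungs, a log2 ratio of 0.05 (-0.14 to 0.24). In cells with 1 of them it stood at 156 and 174 CPM, with a ratio of 0.16 (-0.01 to 0.32). In cells with 2 it stood at 219 and 284 CPM, with a ratio of 0.38 (0.15 to 0.60). In cells with 3 or more it stood at 416 CPM (344 to 498) and 586 CPM (525 to 652), with a ratio of 0.49 (0.19 to 0.81). The interval of the ratio included 0 in cells with none or 1 of these genes and lay above 0 in cells with 2 or more, and whether the ratios differ between these groups was not tested.

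The shares of cells shifted too. Cells with 3 or more of the 6 genes made up 2.89% of control and 6.44% of metastatic gCap cells, and cells with none 42.8% and 41.2%. With all cells at 2000 UMIs the log2 ratio of Tmem252 was 0.33. It was 0.20 when the metastatic levels were given the control shares of these groups, and 0.10 when the control levels were given the metastatic shares.

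Inhbb encodes a subunit of activin and inhibin. In metastatic lungs gCap cells with an Inhbb UMI stood at 415 CPM of Tmem252 and those without at 186 CPM, a log2 difference of 1.16 (0.89 to 1.42). In control lungs 0.865% of gCap cells had an Inhbb UMI, and the difference was 0.33 (-0.47 to 1.02). For Bcl3, an NF-kB cofactor, the log2 difference was 0.69 (0.33 to 1.03) in control and 1.17 (0.98 to 1.37) in metastatic lungs. For Pim3, a serine/threonine kinase, it was 0.76 (0.62 to 0.91) and 1.14 (1.00 to 1.27). The others had smaller differences in metastatic lungs. For the protease gene Adamts9 it was 0.45 (0.20 to 0.69) in control and 0.67 (0.48 to 0.87) in metastatic lungs. For Osmr it was 0.45 (0.24 to 0.65) and 0.74 (0.57 to 0.91), and for Scarb1 0.59 (0.42 to 0.74) and 0.91 (0.77 to 1.05). Differences of this size were not confined to rCap genes. For Lrg1 the difference was 1.34 in control and 1.44 in metastatic lungs, for Socs3 0.90 and 1.25, and for Junb 0.89 and 1.25. Fos, Egr1, Ier2 and Atf3 lay from 0.70 to 0.83 in control and from 0.81 to 1.02 in metastatic lungs. Jun had 0.75 and 0.37, Fosb 0.32 and 0.33, and Dusp1 0.24 and 0.27.

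**Figure D3:**
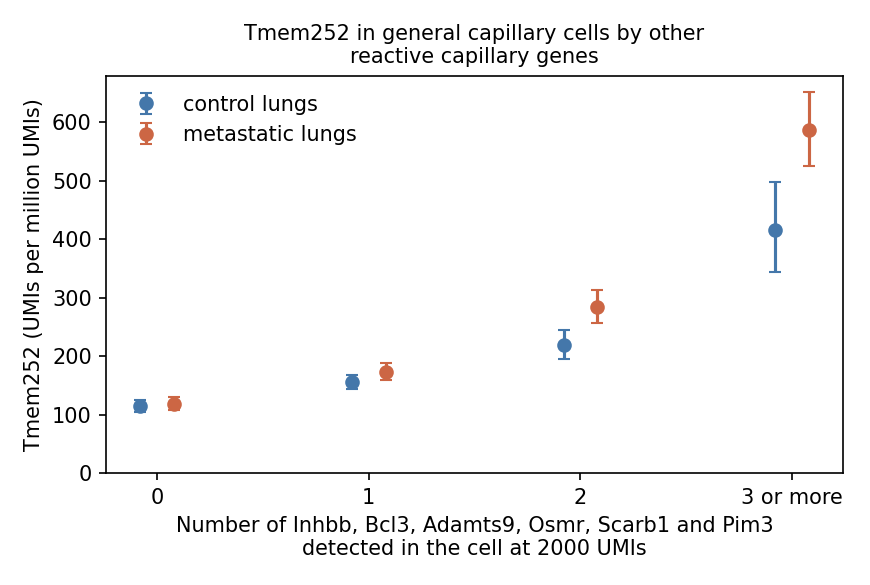
Tmem252 level in CPM (vertical axis, from 0) in gCap cells grouped by how many of 6 other rCap genes were detected at 2000 UMIs per cell; points are 1 library each with 95% counting intervals. The libraries lie together at 115 and 119 where none was detected and apart at 416 and 586 where 3 or more were.

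Of the 10 genes that varied most with Tmem252 over gCap cells inside 1 library, 6 were shared by the libraries. Correlations (Pearson r of depth-adjusted residuals, described here over 5020 control and 4519 metastatic cells that share a library) were taken for 6802 genes with at least 500 UMIs in gCap cells of each library. By construction 2.5% of genes lay above the 97.5 percentile, which was an r of 0.05 in control and 0.08 in metastatic lungs. The highest r in control lungs was that of Lrg1, a secreted glycoprotein of inflamed and angiogenic endothelium, at 0.29, and it was 0.19 in metastatic lungs. Pim3 followed with 0.23 and 0.34, and then Grrp1 with 0.22 and 0.31.

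Further genes of the control top 10 were Cebpd, a C/EBP transcription factor of the acute phase, with an r of 0.22 and 0.27, and Scarb1, a receptor for high-density lipoprotein, with 0.19 and 0.26. Socs3, the feedback inhibitor of gp130 and JAK signaling, had 0.19 and 0.24. The others were Ier3 (0.18 and 0.29), Sbno2 (0.18 and 0.15), the AP-1 subunit gene Junb (0.18 and 0.22) and Slc3a2, the heavy chain of amino acid transporters (0.17 and 0.21). All 10 ranked within the first 49 of 6802 in metastatic lungs. Xbp1, the transcription factor of the unfolded protein response, was second there with an r of 0.33 and had 0.16 in control lungs. Il4ra, a subunit of the IL-4 and IL-13 receptors, ranked 44 in control and 5 in metastatic lungs, with an r of 0.09 and 0.27.

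These r values are low, as sparse counts allow. The levels at 2000 UMIs per cell give their size. Since these genes were ranked in the control library, its steps follow from that choice, and the metastatic library is the readout. Lrg1 stood at 53.8 CPM in control gCap cells with 0 Tmem252 UMIs, at 111 with 1, at 181 with 2 and at 438 with 3 or more. In metastatic lungs the Lrg1 levels were 44.7, 95.4, 151 and 261 CPM. Pim3 went from 217 CPM at 0 to 498 CPM at 3 or more in control lungs and from 216 to 698 CPM in metastatic lungs. Socs3 went from 786 to 1571 CPM and from 694 to 1532 CPM. Cells at 0 and at 3 or more Tmem252 UMIs had like depth, with medians of 5987 and 5914 UMIs in control and 6295 and 6380 in metastatic lungs.

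**Figure D4:**
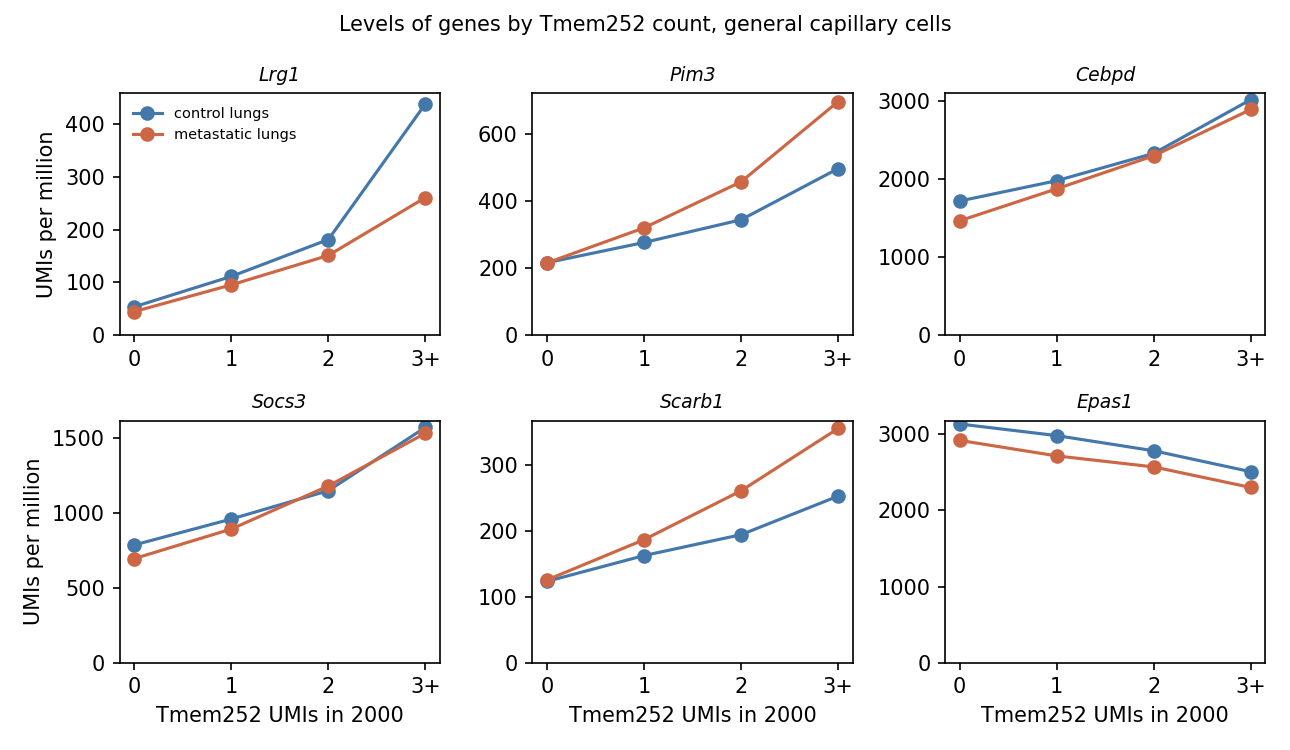
Level in CPM (vertical axes, from 0) of 6 genes in gCap cells with 0, 1, 2 or 3 and more Tmem252 UMIs at 2000 UMIs per cell, averaged over 100 draws. Lrg1, Pim3, Cebpd, Socs3 and Scarb1 are higher at each step in both libraries, and Epas1 is lower at each step. The genes were ranked by r in control lungs, so only the metastatic library was not used in the ranking.

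The lowest r belonged to Epas1, Hpgd, Bmpr2, Jcad and Sptbn1, between -0.12 and -0.11 in control and between -0.16 and -0.06 in metastatic lungs. Epas1 encodes the hypoxia-inducible factor HIF-2α, Hpgd a prostaglandin-degrading enzyme and Bmpr2 a BMP receptor. In control gCap cells Hpgd stood at 7928 CPM where Tmem252 had 0 UMIs and at 6512 CPM where it had 3 or more, and in metastatic lungs at 6197 and 4228 CPM.

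The control top 10 also went with Tmem252 in classes that the ranking had not used. In aCap cells 8 of the 10 in control and 9 in metastatic lungs lay above the 97.5 percentile of that class, with a median r of 0.24 and 0.28. In vein cells 9 of the 10 did so in each library, with a median r of 0.32 and 0.34. The exception in vein cells was Scarb1, at 0.02 in both libraries. The 5 lowest genes did not carry over to aCap cells. In control aCap cells all 5 had an r above 0, from 0.07 for Bmpr2 to 0.16 for Epas1, and in metastatic aCap cells they lay between -0.02 and 0.08. In vein cells they lay between -0.32 and -0.08 in control and between -0.08 and 0.02 in metastatic lungs.

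**Figure D5:**
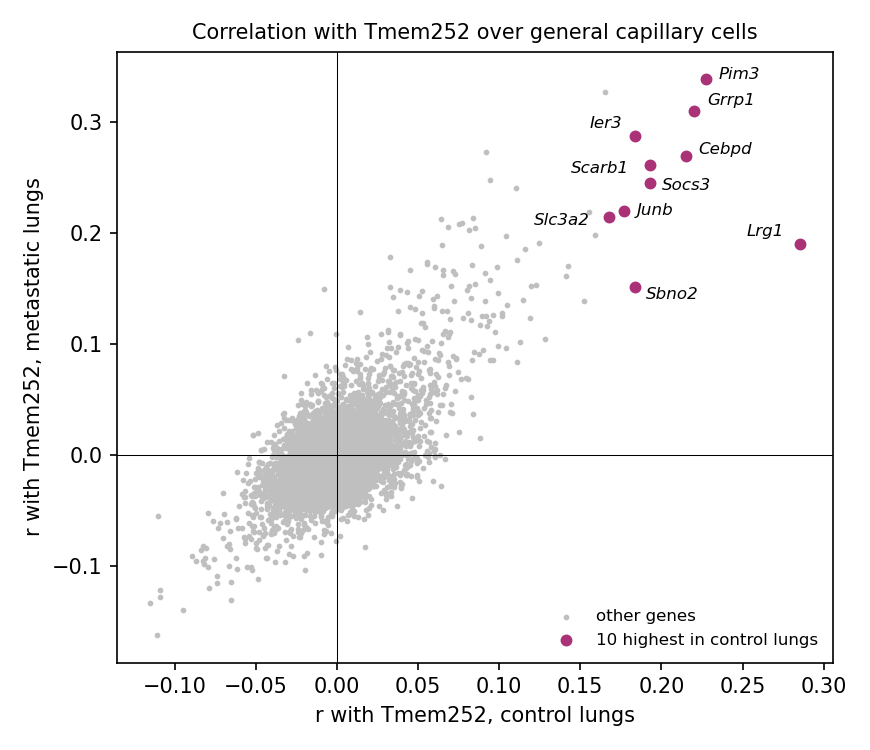
Pearson r with Tmem252 over gCap cells for 6802 genes, in control lungs (horizontal axis) and metastatic lungs (vertical axis), with the 10 highest genes of the control library named. All 10 lie between 0.15 and 0.34 in metastatic lungs.

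Of the gene groups examined, the rCap genes and the immediate early genes varied most with Tmem252. Of the 6 other rCap genes 5 had enough UMIs, and all 5 lay above the 97.5 percentile in each library, at a median r of 0.09 in control and 0.21 in metastatic lungs, beside a median near 0.00 for all genes. Of 8 immediate early genes, which are induced within minutes of a stimulus or of tissue digestion, 7 lay above it in control and 5 in metastatic lungs, at a median of 0.11 and 0.15. The part that digestion of the lungs plays in this was not tested.

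Among 8 measured JAK-STAT genes, 4 lay above the percentile in control lungs, namely Socs3, Osmr, Il6st and Stat3, and 3 in metastatic lungs, where Stat3 had an r of 0.08 just under the limit. Osmr and Il6st encode the subunits of the oncostatin M receptor, and Il6st had 0.06 and 0.13. Of 12 NF-kB target genes 6 had enough UMIs, and 2 passed in each library, Nfkbia (0.09 and 0.09) and Bcl3 (0.08 and 0.21). Bcl3 and Osmr are also among the rCap genes counted above, so these groups overlap. Interferon genes passed in neither library, with a median of 0.02 and 0.00 over 8 genes. Glucocorticoid-response genes had a median of 0.00 and -0.04 over 7. Of 3 flow-response genes Klf2 lay just above the limit in control lungs at 0.05, with 0.02 in metastatic lungs. Of 5 VEGF target genes Rcan1 passed in metastatic lungs, with 0.05 in control and 0.10 in metastatic lungs.

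Across the 8 levels of the 4 classes in 2 libraries, the genes most like Tmem252 were Ass1, Rack1, Rpl24, Gch1 and Rplp0, with r of 0.98 to 0.99 on the log2(CPM + 1) scale among 10815 genes. Ass1 (argininosuccinate synthase) and Gch1 (GTP cyclohydrolase) act in arginine and tetrahydrobiopterin synthesis, and the other three belong to the ribosome. With 8 points from 2 libraries, 44 genes reached an r of at least 0.95. Ass1 stood at 73.9 CPM in control vein cells, 35.1 in gCap cells and 17.6 in aCap cells.

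The nearest protein-coding genes were read beside Tmem252. The gene Fam122a, 196652 bases before its start, stood at 42.8 CPM in control and 42.0 CPM in metastatic gCap cells, a log2 ratio of -0.03 (-0.14 to 0.08), and had an r with Tmem252 of -0.01 in each library. The other three neighbors, Pip5k1b, Pgm5 and Gm10053, had at most 30 UMIs in gCap cells of a library, too few for a comparison.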

How the data were processed

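The deposited files hold raw UMI counts per gene and barcode, unfiltered, for 2 libraries. The authors made these counts with Cell Ranger (version 3.1.0 in the file headers) against mm10; the annotation release is not given in the sources used here. The submitters' processing notes also name Seurat, whose output was not used. Total UMIs were 67929614 in the control and 64733724 in the metastatic library.

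Cells were called and classed by the rules given above, and UMIs of a class were summed per library (Python 3.11.15, numpy 2.4.6, scipy 1.17.1). Levels have exact Poisson intervals, ratios exact conditional binomial intervals and shares Clopper-Pearson intervals; no p-value was computed, because cells are not replicates. Thinned shares are exact expectations. Residuals for correlations were negative binomial with theta 100. The genes named are Tmem252, the 10 highest and 5 lowest by r in control gCap cells, the 5 most alike over class levels, the 2 nearest protein-coding genes on each side, and list genes; Xbp1 and Il4ra were added after their values were seen. The members and lists were chosen with earlier results of these data known. Scripts were tested on simulated data. Doublets were not removed from the values reported. The class levels left out barcodes that passed several class rules (46 and 32) and those that passed none (394 control and 466 metastatic).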

Additional observations from a re-analysis of the deposited data

Results flagged for a closer look

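The ratio of metastatic to control lungs ran in opposite directions between classes. On the log2 scale it was 0.37 in gCap cells and 0.54 in aCap cells against -0.71 in artery cells. Each of these counting intervals left out 0, and the difference between classes was not tested. The artery values rest on 63 and 59 cells, and 1 metastatic aCap cell held 70 of the 657 UMIs of its class.

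Barcodes outside the cells also carried Tmem252. In barcodes of 101 to 200 UMIs, which the comparisons do not use, the level was 109 CPM (101 to 117) in the control and 143 CPM (134 to 152) in the metastatic library, and in barcodes of 11 to 50 UMIs it was 59.4 CPM (42.2 to 81.2) and 39.8 CPM (26.7 to 57.2).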

How the results depend on the processing

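Of 152 recomputed values 130 stayed inside the counting interval of the value reported. Subtracting the RNA of barcodes with 11 to 50 UMIs, at a share read from hemoglobin genes, turned the gCap log2 ratio to -1.88 and the control vein over gCap ratio to -0.59, and gave 1.38 for the aCap ratio, 0.66 for the vein ratio, 4.93 and 1.67 for gCap over aCap in control and metastatic lungs, and 1.95 for metastatic vein over gCap. That share came out at 89.7% of the RNA in control gCap cells, of whose hemoglobin UMIs the top 5% of cells held 77.8%. With the share read from the other 95% of cells, an alternative chosen after seeing the data, it was 21.0%, the gCap ratio was 0.26 and gCap over aCap was 1.95 in control lungs. Asking for at least 3 markers gave gCap over aCap ratios of 2.45 and 2.35, an artery ratio of -4.78 (-10.1 to -2.21) from 35 UMIs in 12 control cells and 1 UMI in 7 metastatic cells, 208 CPM in metastatic gCap cells and 7.34% of them with 6 or more UMIs. That share was 5.73% at a minimum of 300 genes. Without the 407 and 334 barcodes marked as doublets the aCap ratio was 0.72 and gCap over aCap was 2.01 and 1.63. The control gCap level was 158 CPM without cells holding any other class marker, and 161 CPM without barcodes of other cell types, where the difference by 1 vein marker was 0.54. Ranked in metastatic lungs, 6 of the 10 genes were shared. TMM scaling, a minimum of 1500 genes, the 10% mitochondrial limit and thinning to 1000 UMIs moved no value out of its interval. No paired analysis was possible because each condition has 1 library. The artery class holds few cells, 63 and 59, and with them 98 and 59 Tmem252 UMIs.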
